A study of Mus musculus with 15 samples.

Results

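Lyz1 and Lyz2 encode the mouse lysozymes and were followed as 2 of the 16886 genes of an RNA sequencing series on cultured bone macrophages. They were found by gene symbol and are described each and as a sum, because they are near-identical neighbours that may share reads. Both passed the filter on low counts that left 11668 genes for testing. They were selected on their counts and expression values in these same libraries, so their levels and the differences between genotypes are given as a description, without a test.

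The series compared bone macrophages of wild-type mice (WT), of a knockout of the endothelial receptor ROBO4 (ROBO4_KO, ROBO4-/-) and of a knockout of VLDLR, a receptor for lipoproteins (VLDLR_KO, VLDLR-/-), with 5 libraries of each. The labels give the strain of all 15 libraries as C57BL6J, and all cells were grown for 14 days with M-CSF at 20 ng/ml, which lets bone marrow cells become macrophages and survive. Library totals were 18132866 to 19005966 estimated counts. The sample codes have a digit before the letter B (WT replicates 3 to 5, ROBO4_KO 1 and 2, VLDLR_KO 1 and 2) or after it (the other 8 libraries), and the labels do not say what this code form stands for. The form split every genotype and went with 4441 calls among the tested genes (38.1%), so values are given within each form. Nothing in the labels ties a replicate to its own animal or culture, and the p values therefore speak only of the spread among libraries, which may be technical. The 10 macrophage markers (Adgre1 and Csf1r among them) were detected in every genotype and summed to 10547 to 17911 CPM per library (CPM are counts scaled to a common library total, corrected by TMM). The targeted genes check the labels weakly: Vldlr had 5 to 36 counts in WT, 2 to 38 in ROBO4_KO and 1 to 9 in VLDLR_KO, and Robo4 had 0 to 4, 0 and 0 to 1.

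Lysozyme is a muramidase that cuts the sugar backbone of peptidoglycan, the polymer that forms the bacterial cell wall. Macrophages make it in large amounts, keep it in lysosomes and phagosomes and also secrete it, and the fragments it frees from bacteria are ligands of innate immune sensors. Mice have a duplicated gene: Lyz2 (lysozyme M) is the form of macrophages and neutrophils and the source of the LysM-Cre driver line, and Lyz1 (lysozyme P) is best known from Paneth cells of the small intestine.

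The duplicates lie side by side on the minus strand of chromosome 10 (GRCm38.p6). Lyz1 (Entrez 17110) spans 117287795 to 117292868, and Lyz2 (Entrez 17105) spans 117277541 to 117282272 in RefSeq, leaving 5522 bases between them. The deposited table gives Lyz2 a longer span, 117266597 to 117292909, which covers Lyz1, because it adds a transcript of the authors' own to the RefSeq transcript. Neither gene had a whole-number count in any of the 15 libraries, while 3.70% of all genes had none. Such counts can arise when reads that fit several genes are divided among them, which was not tested here. How reads were assigned to Lyz1 and Lyz2 is not known, so the split is uncertain and the sum is the safer value.

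The 250 bases before each RefSeq start site show how far the duplicates share their promoter. The stretches are chr10:117292869-117293118 for Lyz1 and chr10:117282273-117282522 for Lyz2, both read 5′ to 3′ on the minus strand, from RefSeq. Capitals mark the bases that differ between the genes or lie opposite a gap in a global alignment.
Lyz1: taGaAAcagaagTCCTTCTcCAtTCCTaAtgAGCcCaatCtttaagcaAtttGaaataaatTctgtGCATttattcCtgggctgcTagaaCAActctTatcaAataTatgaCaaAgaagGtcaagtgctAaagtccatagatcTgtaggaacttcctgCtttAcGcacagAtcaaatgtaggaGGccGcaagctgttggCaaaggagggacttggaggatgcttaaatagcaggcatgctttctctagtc
Lyz2: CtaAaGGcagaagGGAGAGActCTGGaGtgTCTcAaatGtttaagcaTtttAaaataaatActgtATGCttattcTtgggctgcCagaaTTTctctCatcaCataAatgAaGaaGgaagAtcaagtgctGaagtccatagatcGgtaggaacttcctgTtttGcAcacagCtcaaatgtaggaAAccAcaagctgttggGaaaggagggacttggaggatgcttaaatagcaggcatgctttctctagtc
Of 248 aligned bases 200 were identical (80.6%), and the differences crowded at the distal end. Of the 100 bases nearest the start site of Lyz1, 92 were identical, and the 50 bases next to the start formed an unbroken identical run. Both promoters held AGGAAGT, a site of ETS factors such as PU.1, at the same place, 100 to 94 bases before the start on the opposite strand, where it reads acttcct. It was found in 7.69% of 32851 promoters of this length, searched on both strands, and was chosen for the search after the sequences had been read. A match to TTNNGNAA, the palindrome-like site of C/EBP factors, lay 209 to 202 bases before the start in Lyz1 and 55 to 48 bases before it in Lyz2 (36.8% of promoters). The RUNX site TGTGGT lay in the Lyz2 promoter alone, 66 to 61 bases before the start on the opposite strand (14.0% of promoters). GAGGAA (23.3%), CCGGAA (12%) and TATAAA (12.4%) matched neither promoter. A match describes letters and does not show binding.

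Lyz2 was among the most abundant transcripts of these macrophages. On the length-scaled FPKM of the authors it averaged 12346 over the 15 libraries, behind the ferritin chains Fth1 (21235) and Ftl1 (14102) and just ahead of the lysosomal proteases Ctsd (12061) and Ctsb (10481). It ranked 1st or 2nd of all genes in the VLDLR_KO libraries, 4th or 5th in ROBO4_KO and 4th to 8th in WT. Lyz1 averaged 765 FPKM and ranked between 33 and 249. The FPKM of Lyz2 was 15.9 to 18.1 times that of Lyz1 in 14 libraries and 12.9 times in VLDLR_KO replicate 2.

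In WT the level of Lyz2 was 10856, 9977, 5436, 4984 and 6272 CPM in replicates 1 to 5. In ROBO4_KO it was 6485, 6201, 8442, 9247 and 8547 CPM. In VLDLR_KO it was 20239, 26395, 14374, 13162 and 15549 CPM. Every VLDLR_KO library lay above every library of the other genotypes, and the ROBO4_KO values lay inside the WT range. Within WT the libraries with the digit after B (replicates 1 and 2) were the high ones, and within VLDLR_KO those with the digit before B (replicates 1 and 2) were. In bulk RNA, more lysozyme-making cells and more lysozyme RNA per cell cannot be told apart.

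Lyz1 followed the same order at a lower level. Its CPM was 820, 725, 374, 341 and 482 in WT replicates 1 to 5 and 495, 434, 655, 654 and 598 in ROBO4_KO. VLDLR_KO had 1483, 2524, 1056, 985 and 1133 CPM. VLDLR_KO did not overlap with WT or with ROBO4_KO for either gene. Among all tested genes, 3.98% were higher in every VLDLR_KO library than in every WT library, and 3.51% were so against ROBO4_KO. The genes were chosen for this pattern, so nothing is read from it.

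**Figure D1:**
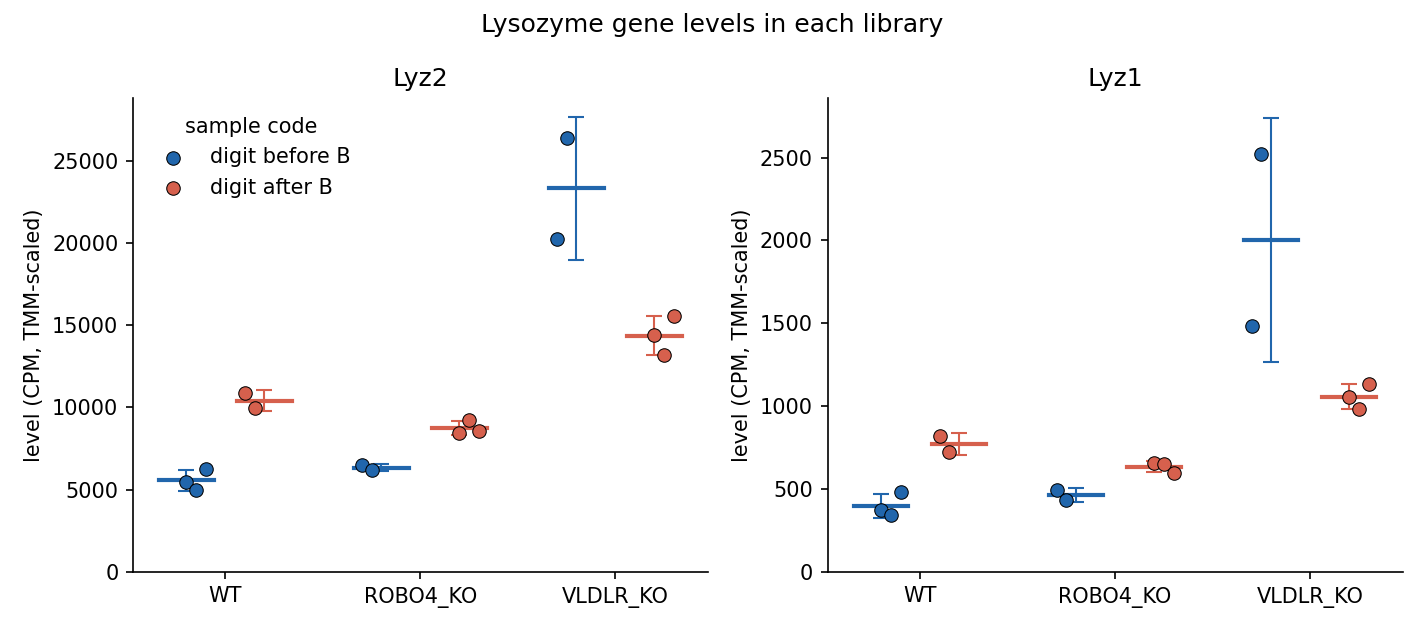
Levels of Lyz2 (left) and Lyz1 (right) in CPM on linear axes from 0, by genotype. Points are libraries, blue for sample codes with the digit before B and red for those with the digit after B, and lines and bars are mean and SD of the 2 or 3 libraries of that form. The VLDLR_KO libraries sit above all others for both genes, and the forms are reversed in order between WT and VLDLR_KO.

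The sum of both genes made up 0.543% of all counts in WT replicate 4 and 2.68% in VLDLR_KO replicate 2. Ordered by genotype and form, the sum rose from WT with the digit before B (5963 ± 727 CPM, SD, n = 3) and ROBO4_KO with the digit before B (6807 ± 244, n = 2), whose ranges overlapped. ROBO4_KO with the digit after B followed at 9381 ± 451 CPM (n = 3) and WT with the digit after B at 11189 ± 688 (n = 2). VLDLR_KO came last, with 15420 ± 1268 CPM for the digit after B (n = 3) and 25320 ± 5089 for the digit before B (n = 2). Apart from the lowest pair, neighbours in this order did not overlap. The means of all neighbours, the lowest pair included, differed by more than the larger SD.

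With form in the model, the log2 CPM of the sum was 1.25 higher in VLDLR_KO than in WT (SE 0.26, a 2.37-fold difference). It was 1.18 higher than in ROBO4_KO (SE 0.26), and ROBO4_KO differed from WT by 0.06 (SE 0.26). These pooled values stand for differing sizes within the forms. With the digit before B, VLDLR_KO exceeded WT by 2.08 (SE 0.18, 4.22-fold), and with the digit after B by 0.46 (SE 0.09, 1.38-fold). Against ROBO4_KO the differences were 1.88 (SE 0.19) and 0.71 (SE 0.08). ROBO4_KO minus WT was 0.20 (SE 0.18) with the digit before B, where the ranges overlapped, and -0.25 (SE 0.09) with the digit after B, where they did not (18.6% of tested genes were lower without overlap there). Within a form, 25.2% of tested genes were higher in all VLDLR_KO than in all WT libraries, for either form, so a lack of overlap there is common.

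The split by gene was alike: VLDLR_KO minus WT was 2.29 for Lyz1 and 2.06 for Lyz2 with the digit before B, and 0.45 and 0.46 with the digit after B. Seen from the side of the form, the sum was 0.91 higher on the log2 scale with the digit after B in WT (1.88-fold) and 0.46 higher in ROBO4_KO (1.38-fold). In VLDLR_KO it was -0.70 (0.614-fold). Libraries of the 2 forms did not overlap within any genotype, and among all tested genes 28.4% were likewise higher with the digit after B in WT, 26.3% were higher in ROBO4_KO and 28.6% were lower in VLDLR_KO. All 3 together held for 0.934% of tested genes, and nothing is read from this, since the lysozyme genes were chosen on these libraries. Without WT replicates 1 and 2, the libraries in which the immediate-early gene Fos stood at 855 and 944 CPM against 12.5 to 56.1 in the others, the VLDLR_KO minus WT difference of the sum was 1.73 and ROBO4_KO minus WT was 0.55. Whether the Fos levels bear on the lysozyme levels was not tested.

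**Figure D2:**
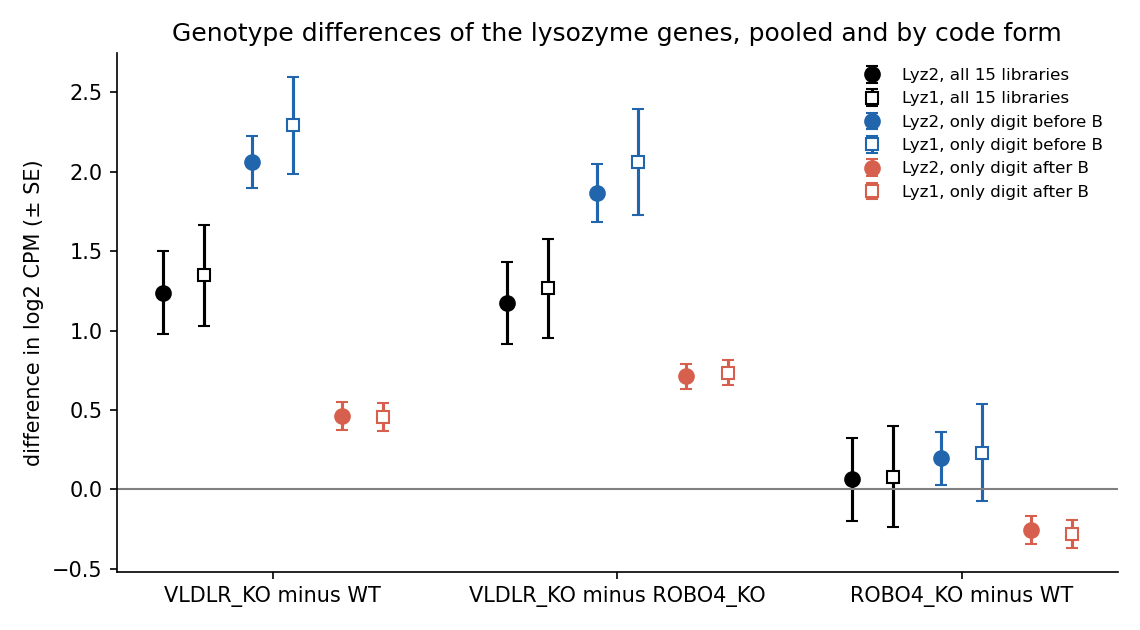
Genotype differences of log2 CPM for Lyz2 (filled circles) and Lyz1 (open squares), with SE, over all 15 libraries with form in the model (black), and within the libraries with the digit before B (blue) or after B (red). VLDLR_KO minus WT runs from 0.45 to 2.29, and ROBO4_KO minus WT lies on both sides of 0.

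Counting error is small beside these differences. It was 0.156% to 1.15% of a level, computed as Poisson error and covering counting only, while the coefficient of variation between libraries of the same genotype and form was 3.17% to 36.7%. The highest value belonged to Lyz1 in VLDLR_KO with the digit before B, where replicate 2 was at 2524 CPM and replicate 1 at 1483.

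Lyz1 and Lyz2 moved as a unit. Their log2 levels correlated with r = 0.993 over the 15 libraries and r = 0.939 after removing the means of the 6 sets of genotype and form. These values are a description, since the genes share library and depth and may share reads. Lyz1 took 6.40% to 7.20% of the lysozyme counts in 14 libraries. VLDLR_KO replicate 2 stood apart with 8.73%. In that library the sum of all FPKM was also the highest, at 676957 against 532163 to 589384 in the others. Without it, VLDLR_KO minus WT was 0.99 for the sum, against 1.25 with it.

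**Figure D3:**
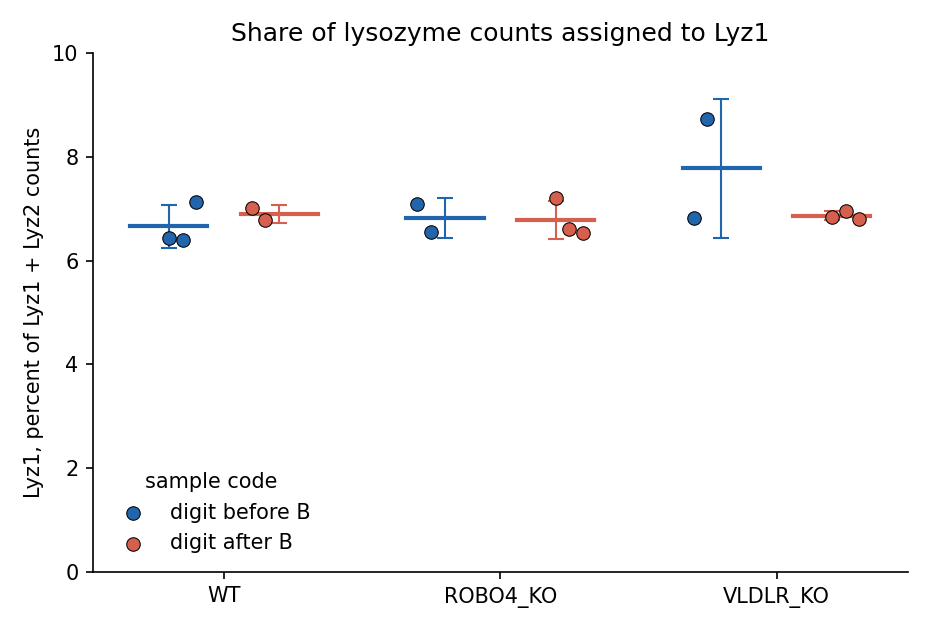
Lyz1 as a percentage of the Lyz1 plus Lyz2 counts in each library, by genotype, with blue for the digit before B and red for the digit after B, and lines and bars for mean and SD of the 2 or 3 libraries of a form. The axis starts at 0. The share was 6.40% to 7.20% in 14 libraries and 8.73% in VLDLR_KO replicate 2.

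The other members of the lysozyme family were near the limit of detection. Of 8 such genes, 2 were in the table. Lyzl4, a lysozyme-like gene best known from testis, had 1.41 ± 0.560 CPM in WT, 1.09 ± 0.316 in ROBO4_KO and 1.69 ± 0.550 in VLDLR_KO (SD, n = 5 each). It did not pass the test between VLDLR_KO and WT (log2 fold change 0.43, SE 0.28, edgeR adjusted p = 0.317). Spaca5 was at 0 in all libraries of WT and ROBO4_KO and reached 0.0594 CPM in VLDLR_KO.

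Genes around the locus differed less between genotypes than lysozyme did. Lysozyme was chosen on its values in these libraries, so nothing is read from that contrast. Within 1 Mb, 16 other genes were in the table and 11 were tested. Mdm2, the ubiquitin ligase that restrains p53, was the only one called between VLDLR_KO and WT, and it was lower (log2 fold change -0.39, SE 0.093, edgeR adjusted p = 0.0111). The other tested neighbours ranged from -0.23 to 0.21 (adjusted p 0.207 to 0.990), among them the nearest, Yeats4 (0.10), a chromatin reader, and Cpsf6 (0.14), a polyadenylation factor. Between VLDLR_KO and WT, 16.8% of all tested genes were called. Between the code forms 4 of the 11 were called, Rab3ip, Nup107, Rap1b and Mdm1, all higher with the digit after B, beside 38.1% of all tested genes.

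The factors that drive macrophage lysozyme were examined next. PU.1 (Spi1) is the ETS factor that sets up macrophage identity, and C/EBP factors bind lysozyme regulatory regions with it. Spi1 was at 328 CPM in WT (297 to 363), 333 in ROBO4_KO (305 to 359) and 374 in VLDLR_KO (280 to 524), with a log2 fold change of 0.20 between VLDLR_KO and WT (SE 0.13, edgeR adjusted p = 0.295). Cebpa had 174, 178 and 229 CPM (0.40, SE 0.22, adjusted p = 0.231). Cebpb had 61.6, 37.5 and 49.0 CPM (-0.34, SE 0.21, adjusted p = 0.284). None of the 3 passed that test. With the digit before B alone, where 20.5% of all tested genes were called, Cebpa was called (0.97, adjusted p = 0.0157), and with the digit after B its log2 fold change was -0.16 (adjusted p = 0.585). Cebpb was called with the digit after B alone (-0.89, adjusted p = 0.0180; 15.7% of all tested genes were called) and without VLDLR_KO replicate 2 (adjusted p = 0.0308).

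Of the 17 tested factors in the list of myeloid regulators, 1 rose and none fell in VLDLR_KO against WT, beside 16.8% of all tested genes called in either direction. It was Cebpd, which encodes C/EBP delta, at 6.05 to 10.4 CPM in WT, 5.33 to 11.2 in ROBO4_KO and 6.96 to 31.1 in VLDLR_KO (1.0, SE 0.20, edgeR adjusted p = 0.00404). The groups overlapped, and the call was lost with the digit after B alone (0.43, adjusted p = 0.138) and without form in the model (adjusted p = 0.119). The list's median log2 fold change was -0.04, against 0.02 over all tested genes.

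Peptidoglycan fragments are read by NOD receptors and by the NLRP3 inflammasome. In VLDLR_KO against WT 2 of the 19 tested sensing genes rose and 2 fell, beside 16.8% of all tested genes called. The list median was 0.05. Nlrp3, the inflammasome sensor, rose by 0.99 (SE 0.24, edgeR adjusted p = 0.0119), from 20.8 to 35.3 CPM in WT to 37.9 to 69.1 in VLDLR_KO, with no overlap (9.42% of all tested genes did not overlap, in either direction). With the digit after B alone it was not called (0.84, adjusted p = 0.133). Its adaptor Pycard (ASC) rose by 0.51 (SE 0.14, adjusted p = 0.0234), with a call that was lost without WT replicate 2 (0.0526), 3 (0.0569) or 4 (0.0540), or without WT replicates 1 and 2 together (0.0906). Cd36, a scavenger receptor that assists TLR2, fell (-1.90, SE 0.57, adjusted p = 0.0327), with VLDLR_KO at 66.6 to 3715 CPM and WT at 1146 to 4322, which overlapped. It was lost without WT replicate 3 (0.0560) or 4 (0.0586) or VLDLR_KO replicate 1 (0.0893) or 2 (0.0514), with the digit after B alone (-0.60, 0.109) and without form in the model (-0.61, 0.693). The other gene that fell was Nod1, named because it completes the count (-0.50, adjusted p = 0.0470), and its call was lost in 14 of 23 alternative settings.

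Other bactericidal products of macrophages moved in both directions. Of 18 tested effectors, 3 rose and 3 fell in VLDLR_KO against WT, beside 16.8% of all tested genes called in either direction. The list median was 0.13. Marco, a scavenger receptor that binds bacteria, rose by 2.18 (SE 0.40, edgeR adjusted p = 0.00187), from 0.635 to 1.54 CPM in WT to 1.67 to 6.89 in VLDLR_KO. Ncf4, a cytosolic subunit of the phagocyte NADPH oxidase, rose by 1.2 (SE 0.15, adjusted p = 7.93e-05), from 95.0 to 134 CPM in WT to 202 to 330 in VLDLR_KO. Irgm2, an interferon-induced GTPase of cell-autonomous defence, fell (-1.11, SE 0.11, adjusted p = 9.77e-06), from 28.1 to 33.7 CPM to 11.1 to 17.2. WT and VLDLR_KO did not overlap for these 3 genes, nor for 9.42% of all tested genes in either direction. All 3, picked as the called genes with the largest fold change, passed the test in each of the 23 alternative settings.

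The same genes can be set beside the within-form sizes of lysozyme. With the digit before B and after B the log2 fold change of Marco was 2.66 and 1.71, that of Ncf4 1.48 and 0.96, and that of Irgm2 -1.19 and -1.04. For the lysozyme sum the values were 2.08 and 0.46, and for Cd36 they were -3.98 and -0.60. Marco, Ncf4 and Irgm2 are genes called within each form, and the gaps between forms were not tested.

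Lysosomal enzymes that cut sugar chains, as lysozyme does, did not move together. Of 18 tested glycosidases 2 rose and 2 fell in VLDLR_KO against WT, beside 16.8% of all tested genes called. The list median was -0.01. Glb1 (beta-galactosidase) fell (-1.01, SE 0.13, edgeR adjusted p = 8.43e-05), from 104 to 130 CPM in WT to 46.6 to 83.6 in VLDLR_KO. Fuca1 (alpha-fucosidase) rose by 0.66 (SE 0.14, adjusted p = 0.00536), and was not called with the digit after B alone (0.39, adjusted p = 0.0858). Gla, alpha-galactosidase, completes the count (-0.26, adjusted p = 0.0407), and its call was lost in 15 of 23 alternatives. Between the code forms 8 of the 18 fell and none rose with the digit after B, beside 19.3% of all tested genes lower there.

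Genes of granules and lysosome secretion, the route by which lysozyme leaves the cell, gave 1 gene that rose and 1 that fell among 19 tested. The list median was 0.04, and 16.8% of all tested genes were called between VLDLR_KO and WT. Atg7, an enzyme of autophagosome formation, rose by 0.29 (SE 0.090, edgeR adjusted p = 0.0370), and Vamp7, a SNARE of lysosome exocytosis, fell (-0.43, SE 0.13, adjusted p = 0.0421). Those calls were lost in 13 and 14 of the 23 alternatives, among them the left-out WT replicates 1 to 5 in turn, which gave adjusted p of 0.0518 to 0.0784 for Atg7 and 0.0609 to 0.0886 for Vamp7.

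Over these 5 lists together, 17 of 91 tested genes were called between VLDLR_KO and WT (18.7%, beside 16.8% of all tested genes), with a median of 0.01. Against ROBO4_KO 16 of the 91 were called (17.6%, beside 16.0%), and both comparisons use the same VLDLR_KO libraries. Among those named above, the log2 fold change against ROBO4_KO was 1.15 for Ncf4 (adjusted p = 0.000125), -1.02 for Irgm2 (1.95e-05), 1.88 for Marco (0.00575) and 1.04 for Nlrp3 (0.00912). It was 0.89 for Cebpd (0.00893), -0.94 for Glb1 (0.000174) and 0.56 for Fuca1 (0.0138). For the secretion genes it was 0.37 for Atg7 (0.0108) and -0.49 for Vamp7 (0.0208). With the digit after B alone, Cebpd, Fuca1, Atg7 and Vamp7 were not called against ROBO4_KO, and with the digit before B alone Nlrp3 and Glb1 were not. Hk2, a hexokinase that senses a peptidoglycan sugar, rose against ROBO4_KO (0.60, adjusted p = 0.0133), though not with the digit before B alone (0.10, adjusted p = 0.621). Gaa (acid alpha-glucosidase, 0.48, adjusted p = 0.0281) and Tlr6 (-0.41, adjusted p = 0.0327) were called there as well, with calls lost in 6 and 11 of the 23 alternatives. Between ROBO4_KO and WT edgeR called none of the 91, beside 0.643% of all tested genes. There, 12 of the 91 had an unadjusted edgeR p under 0.05, beside 715 of all 11668 tested genes. DESeq2 called 2, Cebpb and Man2b2, both lower, beside 172 of the 11663 genes it tested.

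**Figure D4:**
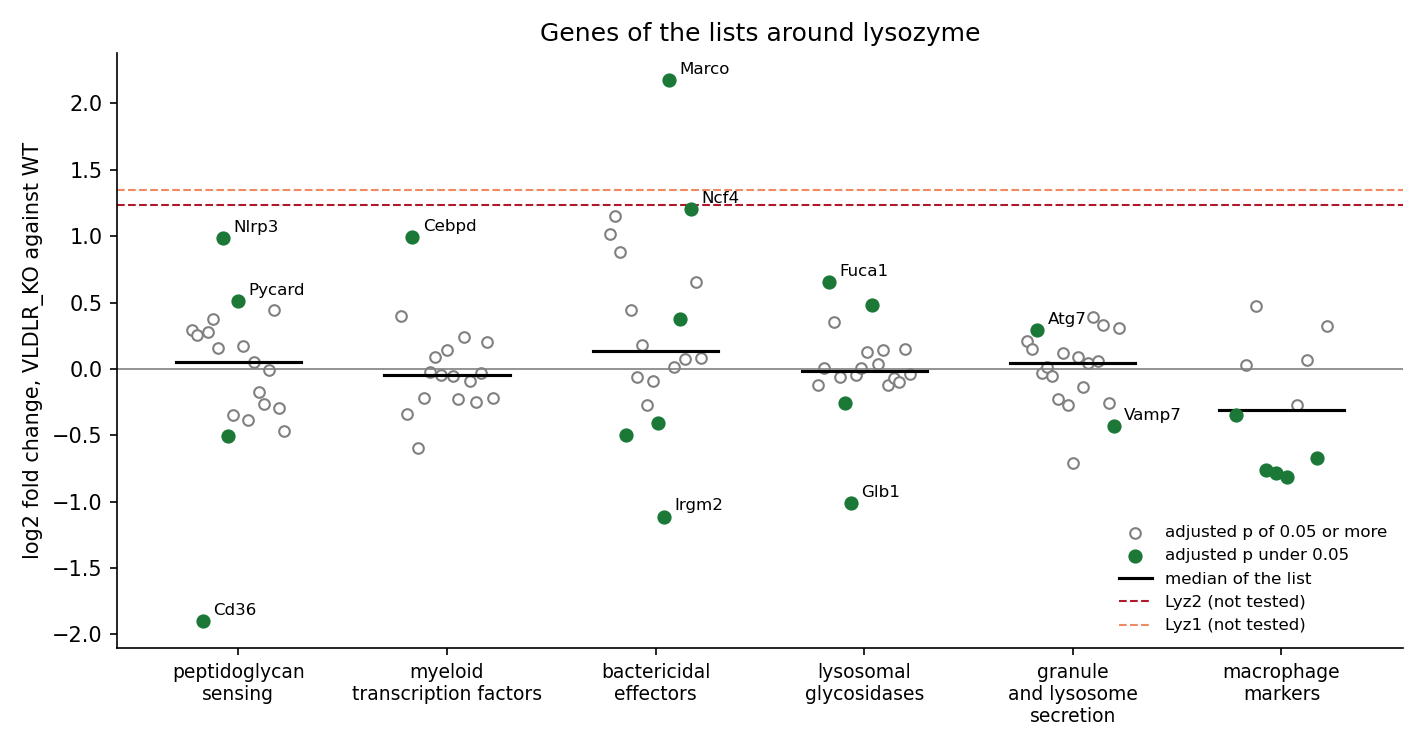
Log2 fold changes of VLDLR_KO against WT for the tested genes of 5 pathway lists and of the macrophage markers. Filled green points passed the test (edgeR adjusted p under 0.05), open points did not, black lines are list medians, and dashed lines are Lyz2 (1.24) and Lyz1 (1.35), which were not tested. The medians lie between -0.31 and 0.13, below both lysozyme genes, which were chosen on their values in these libraries.

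Markers of the cells that also make lysozyme were read beside these results. Of the 10 macrophage markers 5 fell and none rose in VLDLR_KO against WT (median -0.31), beside 9.03% of all tested genes lower and 16.8% called in either direction. Among the 5 were the integrin Itgam (-0.82, edgeR adjusted p = 0.0114), Fcgr1 (-0.78, 0.0120) and Fcer1g (-0.76, 0.00277). Itgam and Fcer1g were not called without WT replicates 1 and 2 (adjusted p = 0.0605 and 0.0621), nor Itgam without form in the model (0.421), Fcgr1 with the digit after B alone (0.179) and Fcer1g with the digit before B alone (0.178). The 6 monocyte markers summed to 25.6 to 102 CPM in VLDLR_KO, 8.44 to 28.3 in WT and 7.0 to 30.5 in ROBO4_KO, and none was at 0 throughout a genotype. Of the 3 tested, Cx3cr1 (2.76, adjusted p = 0.00141) and F13a1 (2.33, adjusted p = 0.0123) rose against WT. F13a1 was not called without WT replicate 1 (0.0761) or 2 (0.0712), without both (log2 fold change 1.03, adjusted p = 0.517) or without form in the model (0.122). Cx3cr1 was not called with the digit after B alone (0.0531) or without form in the model (0.0734). F13a1 was not tested with the digit before B alone. Against ROBO4_KO, which uses the same VLDLR_KO libraries, F13a1 (3.72, edgeR adjusted p = 0.000294) and Cx3cr1 (2.23, 0.00529) were called as well. Neither was called there without form in the model (0.0898 and 0.1055), nor Cx3cr1 with the digit after B alone (0.06285).

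The 15 neutrophil markers in the table summed to 77.8 to 192 CPM in VLDLR_KO, 68.5 to 157 in WT and 64.1 to 202 in ROBO4_KO. Of these 15, the granule genes Elane, Mpo, Prtn3 and Retnlg were at 0 in every VLDLR_KO library, Retnlg in every WT library and Prtn3 in every ROBO4_KO library. With the digit before B the neutrophil sum was 181 and 192 CPM in VLDLR_KO against 64.1 to 83.6 in the other genotypes, and with the digit after B 77.8 to 118 against 115 to 202. The sum does not show which of the 15 genes carry it, and the granule genes at 0 in VLDLR_KO add nothing to it there. The part of monocyte or other marker levels in the lysozyme levels was not tested.

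The genes most like lysozyme over the 15 libraries were sought among 8568 genes with a mean of at least 10 CPM, by the Pearson correlation of log2(CPM + 1) with the lysozyme sum. The median r over these genes was 0.04, and 25 genes exceeded 0.9. The 6 most alike were Igsf8, a membrane protein that binds tetraspanins (r = 0.953), Gmeb1, a DNA-binding protein (0.947), Fcgr2b, the inhibitory receptor for IgG (0.941), Rasal3, a regulator of Ras (0.941), Pigt, a subunit of the enzyme that attaches GPI anchors (0.940), and Bcl2a1d, an anti-apoptotic BCL2 relative (0.938). After removal of the means of the 6 sets, r fell to 0.378 for Fcgr2b and 0.781 for Bcl2a1d, with the others between them. All values share library and depth, and the likeness is described with no test.

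Fcgr2b had the widest range of the 6. Its set means were 33.7 CPM in WT, 40.1 in ROBO4_KO and 188 in VLDLR_KO with the digit before B, and 95.3, 43.7 and 143 with the digit after B. Bcl2a1d had 15.6, 15 and 68.7 CPM, and 23.0, 17.1 and 51.2. Igsf8 had 69.0, 61.1 and 215 CPM, and 97.9, 91.6 and 172. As with lysozyme, the 2 VLDLR_KO sets were the highest for these 3 genes and their order by form was reversed against WT. The genes were picked for following lysozyme over these same libraries, so nothing is read from the shared order.

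**Figure D5:**
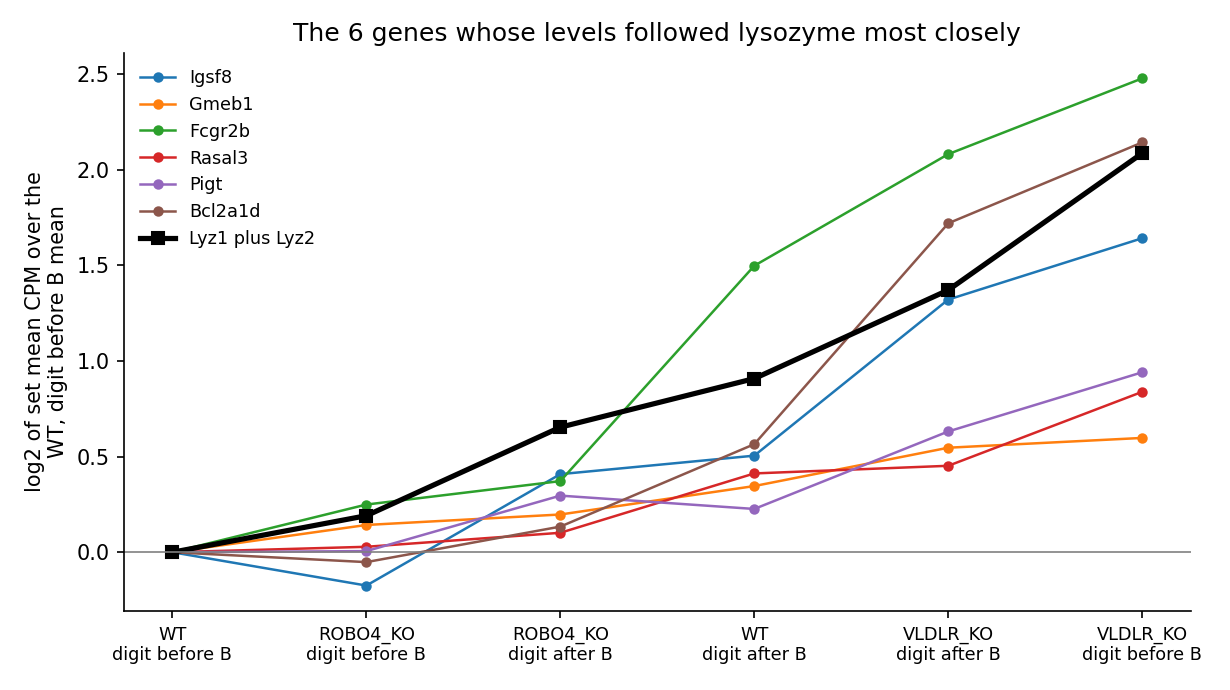
Set means of the lysozyme sum (black squares) and of the 6 genes most like it (coloured circles), as log2 ratio to the WT set with the digit before B, over 6 sets of 2 or 3 libraries ordered by the lysozyme sum. All lines end highest in VLDLR_KO with the digit before B, and Fcgr2b and Bcl2a1d end above or near lysozyme.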

How the data were processed

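Reads were aligned by the authors with HISAT and Bowtie2 to GRCm38.p6, per the submitters' processing notes, while the counting tool is not given in the sources used here. The authors deposited read counts per gene and transcript, named so in the file headers, which are estimated counts without normalization, as 92.6% of the gene values were whole. They also deposited values taken here as FPKM, inferred from the ratio of count to value, since the file headers name no unit.

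Counts were rounded and tested with edgeR 4.0.16 in R 4.3.3. Genes were filtered with filterByExpr, libraries were scaled by TMM, and a quasi-likelihood model held genotype and code form over all 15 libraries. A call is a Benjamini-Hochberg adjusted p under 0.05 over the 11668 tested genes, two-sided. The procedure was tested on simulated data in which the form effect was the same in every genotype. It was not tested on form effects that differ between genotypes. For Lyz1, Lyz2 and their sum, least squares of log2 CPM on genotype and form gave differences and SE, without a test. Lists were named by up to 3 called genes with the largest fold change per comparison, with Spi1, Cebpa and Cebpb always given. A gene that the rule names is not reported here. The members and lists were chosen with earlier results of these data known.

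Promoters came from RefSeq (GRCm38.p6) and were aligned with Biopython 1.88 (match 2, mismatch -1, gap opening -5, gap extension -1). Alternatives were RLE scaling, DESeq2 1.42.0, no filter, no form term, a block by sample code, each form alone, leaving out libraries and, for the lysozyme genes, other scalings, FPKM and the transcript table.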

Additional observations from a re-analysis of the deposited data

Results flagged for a closer look

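In VLDLR_KO replicate 2, Lyz1 took 8.73% of the lysozyme counts, far from the other 4 libraries of that genotype (6.79% to 6.96%). The gap to the nearest library was 0.913 of the whole range, above the Dixon critical value of 0.71 for 5 libraries. It was the only such library among 15 combinations of a lysozyme measure and a genotype. Chance gives about 1 in 20 groups past that critical value, or 0.75 of 15, and the measures overlap. How often chance gives a ratio of 0.913 was not computed. The 5 libraries pool both code forms, and the genes were selected on these same counts. The value is therefore a description, and nothing is concluded from it.

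The direction of the code form differed between genotypes, and this difference was not tested. Every WT and every ROBO4_KO library with the digit after B lay above every library of its genotype with the digit before B, while in VLDLR_KO every one lay below. Of all tested genes 28.4% (WT), 26.3% (ROBO4_KO) and 28.6% (VLDLR_KO) lacked overlap in these directions, and 0.934% did so in all 3 genotypes. For the sum the effect of the form in VLDLR_KO minus that in WT was -1.62 on the log2 scale, and minus that in ROBO4_KO it was -1.17. For Lyz1 these values were -1.84 and -1.33, and for Lyz2 -1.60 and -1.15.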

How the results depend on the processing

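Other scalings and the FPKM left VLDLR_KO minus WT for the lysozyme sum at 1.24 to 1.26. The transcript table repeated the main value, since each gene had counts for 1 transcript only. Its size depended on the form and on the WT libraries. VLDLR_KO minus WT was 2.29, 2.06 and 2.08 for Lyz1, Lyz2 and the sum with the digit before B, 0.45, 0.46 and 0.46 with the digit after B, and 1.90, 1.72 and 1.73 without WT replicates 1 and 2. VLDLR_KO minus ROBO4_KO was 2.06, 1.87 and 1.88, and then 0.73, 0.71 and 0.71. ROBO4_KO minus WT without WT replicates 1 and 2 was 0.63, 0.54 and 0.55. Leaving out single libraries gave 1.01 to 1.53 for Lyz1, 0.99 to 1.39 for Lyz2 and 0.99 to 1.40 for the sum (VLDLR_KO minus WT). VLDLR_KO minus ROBO4_KO stayed within 0.96 and 1.40 for Lyz1, Lyz2 and the sum, and ROBO4_KO minus WT within -0.04 and 0.27.

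Calls over all genes numbered 1957 for VLDLR_KO against WT, 75 for ROBO4_KO against WT and 1868 for VLDLR_KO against ROBO4_KO. Without form in the model there were 1086, 39 and 888. For ROBO4_KO against WT, DESeq2 called 172, the digit before B alone 20, the digit after B alone 188, the fit without WT replicates 1 and 2 called 44, and that without VLDLR_KO replicate 2 called 125. Leaving out single libraries gave 1455 to 2269, 55 to 125 and 1298 to 2041, and 3911 to 4718 for the form. With the sample code as a replicate block the counts were 1517, 51 and 1141. Deviations were correlated above 0.1 in 4 of 12 pairs of libraries with the same code and in 14 of 25 pairs with different codes. In sets of 2 libraries the deviations mirror each other, so these values cannot decide whether the codes pair the libraries. The main fit does not pair them.

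Of 1555 recomputed values for genes named by rule or list, 1321 kept direction and call, 214 lost the call, 7 gained it and 13 changed sign. Those that changed sign belonged to Spi1, Cebpa and Cebpb, none of them called in the full fit. The cause was not tested. With the digit after B Spi1 was at -0.040 against WT and -0.062 for VLDLR_KO against ROBO4_KO, and Cebpa at -0.16 and -0.15. In ROBO4_KO against WT, Spi1 with the digit before B was at -0.0016, and Cebpa was at -0.075 with the digit before B, -0.011 with the digit after B, and -0.0040, -0.0033, -0.10 and -0.00053 without WT replicate 3, WT replicate 4, ROBO4_KO replicate 3 and VLDLR_KO replicate 2. Cebpb in VLDLR_KO against WT was at 0.23 with the digit before B and 0.13 without WT replicates 1 and 2. Depth did not limit the lysozyme genes, at 6440 counts or more in every library, and it limits Lyzl4 and Spaca5.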

Other observations

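Markers of further cell types that bone marrow cultures can hold were mostly low. The osteoclast markers summed to 58.7 to 242 CPM in libraries with the digit after B and 13.9 to 24.9 with the digit before B, in all genotypes. Of the 3 tested, Dcstamp, needed for macrophage fusion, rose in VLDLR_KO against WT (log2 fold change 1.38, edgeR adjusted p = 0.0122), and was not called with the digit after B alone (adjusted p = 0.266). Stroma markers summed to 27.6 to 186 CPM in WT, 8.61 to 158 in ROBO4_KO and 2.44 to 21.6 in VLDLR_KO. Col3a1, a fibrillar collagen, fell in VLDLR_KO against WT (-4.10, adjusted p = 0.0115), and was not called without WT replicates 1 and 2 (adjusted p = 0.0546). Mast cell and basophil markers summed to 21.3 to 37.4 CPM in WT and ROBO4_KO with the digit before B and to 1.55 to 5.05 CPM in all other libraries. Kit, the stem cell factor receptor, fell in VLDLR_KO against WT (-2.21, adjusted p = 0.00137), though not with the digit after B alone (adjusted p = 0.0912). Dendritic cell, B cell, T and NK cell and erythroid markers summed to at most 1.94 CPM in any library. Klrb1c, an NK cell receptor gene, was at 0 in every VLDLR_KO library and was called lower than in WT (adjusted p = 8.7e-05).

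Neutrophil markers gave 1 gene that rose (Cxcr2, 1.88, adjusted p = 0.00387) and 2 that fell (S100a9, -2.54, 0.0219, and Ngp, -2.29, 0.0197) among 8 tested between VLDLR_KO and WT, beside 16.8% of all tested genes called. All 3 were under 3 CPM in every WT and VLDLR_KO library, and none was called without WT replicates 1 and 2 (adjusted p = 0.0737, 1.0 and 0.339). None of the 3 was tested with the digit before B alone. Against ROBO4_KO they were called in the same directions (edgeR adjusted p = 0.000425, 0.005525 and 0.00536), though not without form in the model (0.167, 0.219 and 0.296).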
